A study of Mus musculus with 5 samples.

Results

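The chemokine system of prostate tumors from TripleTg mice was examined as 60 genes out of the 24527 in the count table: 38 ligands, 18 signaling receptors and 4 atypical receptors. Members were taken from the rows whose symbol began with Ccl, Cxcl, Ccr, Cxcr or Ackr followed by a digit, together with Cx3cl1, Cx3cr1, Xcl1 and Xcr1, a rule on names that uses no measured value. All 5 animals carried hHGFtg, H11 hMET/+, Ctnnb1 L(Ex3)/+ and PB Cre4. Human HGF came from a transgene that does not depend on Cre, whereas human MET and stabilized beta-catenin depended on Cre driven by the probasin promoter, which acts in prostate epithelium, so neither of the latter was targeted to leukocytes or stroma. The castrated group (n = 3) lost its testes at 4 months and was analyzed at 8 months of age, and the intact group (n = 2) was matched for age and genotype. The study's methods give the mice a mixed C57BL/6 and C3H SCID background and do not say whether these 5 were immunodeficient. RNA was taken from tumor tissue as a whole, and libraries held 18951782 to 28015507 counts assigned to genes.

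Chemokines are small secreted proteins that guide the movement of cells, chiefly leukocytes, up a gradient of the ligand. They are named for the spacing of their first cysteines (CC, CXC, CX3C and XC), and act on receptors of the G protein-coupled kind that inhibit adenylate cyclase and activate phospholipase C and Rac. Many ligands share a receptor and many receptors take several ligands. Atypical receptors bind chemokines without coupling to G proteins, and are known for scavenging, transporting or presenting them. In prostate tumors, fibroblasts, endothelium, epithelium and leukocytes can all be sources of ligand, and signaling receptors are carried mainly by leukocytes. In bulk tissue a larger number of cells of a type and more RNA per cell cannot be told apart.

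Marker genes checked the label of the tissue before any comparison. The epithelial genes Krt18, Krt8, Krt19, Epcam and Cdh1 were abundant in all samples. Krt18 was 850, 628 and 866 CPM (counts per 1000000, with library sizes scaled by TMM) in castrated replicates 1, 2 and 3. It was 1109 and 777 CPM in intact replicates 1 and 2. Krt5, Krt14 and Trp63 of the same list were 28.9, 14.3 and 6.09 CPM in intact replicate 1. In intact replicate 2 they were 404, 139 and 101 CPM, with all castrated samples in between. Of the 7 prostate genes found, Msmb had no count in any sample, and Pbsn, the gene of probasin, was 0.453, 0 and 0.241 CPM in castrated samples against 0 and 5.19 CPM in intact ones. Intact replicate 2 stood apart with 1343 CPM of Tgm4, a secretory gene of the anterior prostate, where the other 4 samples had 0.0481 to 0.418 CPM. Intact replicate 1 was thus within the range of the castrated samples for both Pbsn and Tgm4. Tmprss2, an androgen-responsive protease gene, was lower in each castrated sample, at 165, 206 and 169 CPM against 232 and 304 CPM (unadjusted p = 0.0466). Fkbp5, another androgen-responsive gene, was 71.5, 45.9 and 63.1 CPM against 87.7 and 17.2 CPM, highest in intact replicate 1 and lowest in intact replicate 2. Epithelial genes were thus present in all samples, while Pbsn and Tgm4 were under 1 CPM in 4 of the 5. The list of prostate genes summed to 302, 376 and 450.0 CPM in castrated samples and to 344 and 1890.4 CPM in intact ones. For chemokine genes too the 2 intact samples could differ widely, by 6.55-fold for Ccr2 and 10.4-fold for Cx3cr1, while they were 1.14-fold apart for Ccl11, 1.21-fold for Cxcl12 and 1.08-fold for Ccl9. Smooth muscle genes were higher in castrated tumors in all 8, with 7 above both intact samples, and summed to 413, 722 and 659 CPM against 246 and 156 CPM, with Tagln, the highest by mean TPM, at 131, 191 and 164 CPM against 97.2 and 62.4 CPM.

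Of the 60 genes, 50 had more than 1 CPM in at least 2 samples and were tested within edgeR's quasi-likelihood fit over 14612 genes. No member passed a Benjamini-Hochberg adjusted p of 0.05, the lowest adjusted p being 0.289, nor did any other gene (0 of 14612, a background of 0%). At an unadjusted p under 0.05 in the same fit there were 17 members (34.0%), beside 15.0% of all genes tested. The differences given below are therefore measured values and not calls. In these values 45 members were higher and 5 lower in castrated tumors, while 47.9% of all genes tested were higher. The median log2 fold change was 1.25 over the 31 ligands tested and 1.46 over the 19 receptors, beside -0.03 over all genes tested. At an unadjusted p under 0.05 and a log2 fold change over 1, 15 of 50 members (30.0%) were higher, beside 7.66% of all genes tested. Only Ccl25 among the 50 members was lower by the same measure, beside 3.26% of all genes. Of the 15 higher, Ackr1, Ccl28, Ccl4, Ccr3 and Ccr9 exceeded 1 CPM in castrated samples only and entered the test through those samples. In 20 members (40.0%) each castrated sample lay above both intact samples, beside 17.0% of all genes tested. In 1 member each castrated sample lay below both, beside 16.2%. The groups overlapped in the remaining 29. The shares of all genes, 17.0% above and 16.2% below, stand beside every later count of this kind among tested genes with all samples.

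These values rested on some libraries more than others. The receptor median was 3.30 without intact replicate 2 and 1.11 without castrated replicate 3, and the ligand median ran from 1.09 to 1.58. Without castrated replicate 2, 7 of 46 members tested were higher at the unadjusted p, beside 4.5% of all genes. Without castrated replicate 3 there were 9 of 46, beside 4.09%. The number of members above both intact samples went from 20 to 33 without castrated replicate 1 and to 31 without intact replicate 2. With fewer samples more genes separate by order alone, and the shares of all genes tested in these settings were 24.6% and 32.7%, beside 66.0% and 62.0% of members. There were 7 members, Ackr1, Ccl28, Ccl4, Ccr3, Ccr9, Cxcr1 and Cxcr5, that exceeded 1 CPM in castrated samples only. They could therefore enter the test only where castrated tumors were high. Of these, all but Cxcr1 and Cxcr5 were among the 20 above both intact samples. Among all 57 members with any count, 22 lay above both intact samples and 1 below both. Of all 19791 genes with any count, 15.5% lay above and 13.7% below. As a share of all counts, the 60 genes made up 0.179%, 0.343% and 0.224% in castrated replicates 1, 2 and 3, against 0.112% and 0.0919% in intact replicates 1 and 2.

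Corrected for gene length as TPM, the share of a transcript in each 1000000, the ligands summed to 2256, 4604 and 2781 TPM in castrated tumors and to 1328 and 888 TPM in intact tumors. Receptors summed to 212, 359 and 311 TPM against 154 and 139 TPM. All castrated samples were above both intact samples in either sum. A few genes made up most of the ligand level, Ccl6 and Cxcl14 leading in every sample, with Cxcl14 taking 18.5%, 15.2% and 19.1% in castrated tumors against 22.1% and 32.4% in intact tumors. Ccl8 took 7.49%, 6.99% and 8.21% against 1.46% and 3.78%, and Ccl21a 7.08%, 3.08% and 10.3% against 0.0193% and 1.73%. Cxcl12, a longer transcript, took 1.27%, 2.42% and 3.37% against 0.341% and 0.465%. Among receptors, Ccr2 took 19.5%, 8.80% and 17.6% of the summed TPM against 1.96% and 10.7%, so castrated replicate 2 was below intact replicate 2 in this share.

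**Figure D1:**
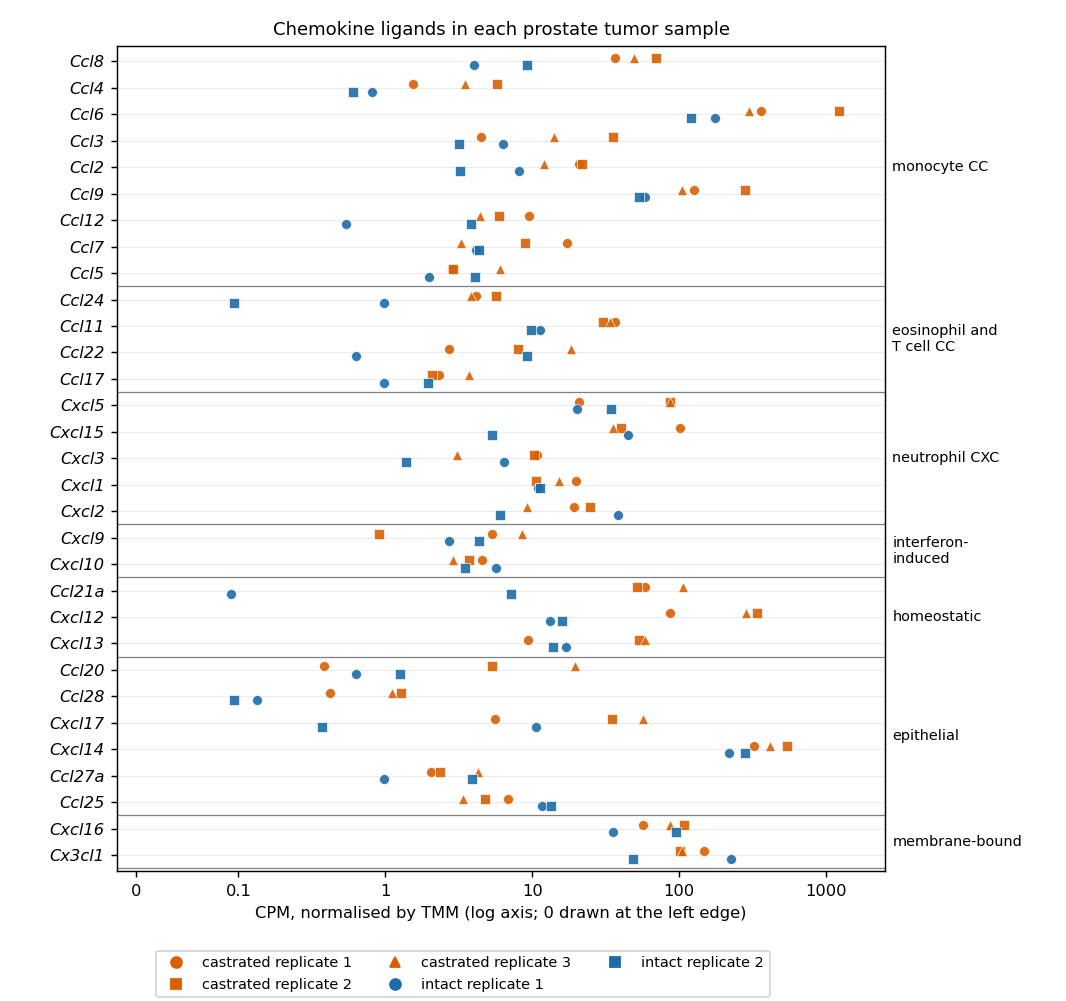
Level of each tested chemokine ligand in every sample, as CPM on a log axis, grouped by role and ordered within a role by fold change; orange marks are castrated and blue marks intact samples, with the shape giving the replicate. Ccl8, Ccl11, Cxcl12 and Ccl21a show the 3 castrated samples apart from and to the right of both intact samples, Ccl25 shows them to the left, and the neutrophil and interferon-induced CXC ligands overlap.

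The CC ligands that attract monocytes and macrophages were higher in castrated tumors in all 9 of the genes tested, with a median log2 fold change of 1.69. Castrated values were above both intact samples in 6, beside 17.0% of all genes tested. For 5 the unadjusted p was under 0.05, beside 15.0% of all genes. Ccl4, which is in both counts, reached the level for testing through castrated samples only. The ligand with the highest mean TPM over the 5 samples was Ccl6, a mouse ligand of Ccr1. Its level was 357, 1215 and 300 CPM in castrated replicates 1, 2 and 3, against 176 and 120 CPM in the intact replicates. Castrated replicate 2 stood far above the other castrated samples, and the lowest castrated sample still lay above the higher intact one (log2 fold change 2.08, SE 0.73, unadjusted p = 0.0338 and adjusted p = 0.316). Without castrated replicate 2 this log2 fold change was 1.16. Ccl6 took 43.6% of the summed ligand TPM in castrated replicate 2, and between 17.6% and 26.0% in the other samples. Ccl9, its neighbor and also a Ccr1 ligand, was 126, 281 and 105 CPM in castrated samples and 58.0 and 53.5 CPM in intact ones. Again replicate 2 was highest, and the log2 fold change was 1.61 (SE 0.48, unadjusted p = 0.0189), or 1.06 without that sample.

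Ccl8, which in mice acts on Ccr8, gave one of the clearest separations between groups. Its values were 36.5, 69.0 and 49.4 CPM in castrated tumors and 3.98 and 9.18 CPM in intact tumors. The lowest castrated value was well above the highest intact one, and the log2 fold change was 2.97 (SE 0.51, unadjusted p = 0.00176, adjusted p = 0.289). Ccr8 itself was not tested, at 0.0697, 0.375 and 0.867 CPM in castrated samples and 0 and 0.0463 CPM in intact samples. Ccl2, the main attractant of inflammatory monocytes through Ccr2, was 20.6, 21.8 and 12 CPM against 8.10 and 3.20 CPM. All castrated samples were higher, with a log2 fold change of 1.69 (SE 0.54, unadjusted p = 0.0236), which was 2.53 without intact replicate 1 and 1.13 without intact replicate 2. Ccl4, an attractant of monocytes and T cells, was 1.53, 5.79 and 3.47 CPM against 0.806 and 0.602 CPM (log2 fold change 2.34, SE 0.74, unadjusted p = 0.0232). Ccl12, which like Ccl2 acts on Ccr2, was 9.45, 5.95 and 4.38 CPM against 0.537 and 3.80 CPM. Its castrated samples were all higher but intact replicate 1 was far below intact replicate 2, and the unadjusted p was 0.125. Its log2 fold change was 0.82 without intact replicate 1 and 3.57 without intact replicate 2. The rest of the group overlapped. Ccl3, a ligand of Ccr1, was 4.46, 35.4 and 14.1 CPM against 6.31 and 3.15 CPM. Ccl7 was 17.1, 8.90 and 3.27 CPM against 4.12 and 4.31 CPM, and Ccl5 was 2.82, 2.89 and 6.07 CPM against 1.97 and 4.08 CPM. Transcripts of Ccl3 and Ccl4 overlap on opposite strands in the annotation, as do those of Ccl6 and E230016K23Rik, and whether reads were counted by strand is not given in the sources used here.

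Ccl8 and Ccl12 lie 1 after the other on chromosome 11, and the upstream sequences of both hold a TATAAA close to the start of transcription. They are shown as neighbors that were above both intact samples in each castrated sample and that both hold this match. Ccl2 and Ccl11, nearby on that chromosome, were also above both intact samples in each castrated sample, and no match was listed for either. Each line is the 100 bases before the RefSeq start in GRCm38.p6, the assembly also called mm10, at chr11:82101745-82101844, plus strand, and chr11:82115085-82115184, plus strand, with TATAAA in capitals.
Ccl12: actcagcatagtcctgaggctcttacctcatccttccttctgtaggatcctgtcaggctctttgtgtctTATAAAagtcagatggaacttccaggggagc
Ccl8: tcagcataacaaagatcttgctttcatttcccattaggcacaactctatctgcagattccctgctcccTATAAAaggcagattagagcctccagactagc
The match began 31 bases before the start in Ccl12 and 32 bases before it in Ccl8. Searched on both strands in the 250 bases before the start, TATAAA occurred in 12.4% of 32851 promoters in the RefSeq table. It occurred in 15 of the 53 promoters (28.3%) listed for the 46 members that have an entry. A match describes these letters and is not evidence that the sequence is used.

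Macrophage markers moved with this group. All 12 genes of the list were higher in castrated tumors, 11 of them above both intact samples and 8 at an unadjusted p under 0.05 and a log2 fold change over 1. Their summed level was 2713, 7474 and 3042 CPM in castrated samples and 1148 and 1744 CPM in intact samples, castrated replicate 2 being highest as it was for Ccl6 and Ccl9. The most abundant was Lyz2, encoding lysozyme, at 1594, 4732 and 1644 CPM against 558 and 1069 CPM, and no marker of the list was at 0 in any sample. The part of macrophage number in the ligand values was not tested.

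Ligands of eosinophils and of type 2 T cells were higher in all 4 genes tested, and the groups were apart in Ccl11, Ccl24 and Ccl17. Ccl11, or eotaxin, had the lowest unadjusted p of any member (0.000741). It was 36.7, 30.3 and 33.8 CPM in castrated tumors against 11.2 and 9.82 CPM in intact tumors, a mean of 33.6 ± 3.20 CPM (SD, n = 3) against 10.5 ± 0.999 CPM (SD, n = 2). The spread within each group was small beside the gap between them, and the log2 fold change of 1.68 (SE 0.24) had an adjusted p of 0.289. Ccl24, which shares the receptor Ccr3 with Ccl11, was 4.15, 5.63 and 3.85 CPM against 0.985 and 0.0927 CPM. All castrated values were above the intact ones (log2 fold change 3.06, SE 0.93, unadjusted p = 0.0198). The log2 fold change of Ccl24 was 5.55 without intact replicate 1 and 2.16 without intact replicate 2. For the Ccr4 ligands, Ccl17 was 2.30, 2.09 and 3.71 CPM against 0.985 and 1.95 CPM, while Ccl22 was 2.72, 7.98 and 18.2 CPM against 0.627 and 9.27 CPM and overlapped. Ccl1 did not exceed 0.241 CPM in any sample, and Ccl26 had no count in any.

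Markers of eosinophils and mast cells stood beside these values. All 7 genes tested of a list of 8 were higher in castrated tumors, 6 of them above both intact samples, and the list summed to 166, 172 and 270 CPM against 42.9 and 21.8 CPM. Kit, which many other cells also carry, was the largest term of that sum in every sample, at 58.5, 68.3 and 64.2 CPM against 32.8 and 13.3 CPM. By mean TPM the mast cell protease gene Tpsb2 was highest, at 40.9, 27.8 and 49.4 CPM against 5.28 and 2.27 CPM. Of the eosinophil genes, Siglecf was 1.60, 5.68 and 7.46 CPM against 0.358 and 1.44 CPM, with the groups apart (log2 fold change 2.45, unadjusted p = 0.0482). The eosinophil peroxidase gene Epx was not tested and lay between 0 and 0.193 CPM, and Prg2 was 0.767, 9.81 and 5.58 CPM against 1.16 and 0.510 CPM, with overlap. The part of these cells in the ligand values was not tested.

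The homeostatic ligands, which organize lymphoid tissue and retain stem cells and leukocytes in their niches, held the 2 largest log2 fold changes of any ligand when all samples were fitted. Cxcl12, made by stromal and endothelial cells and the ligand of Cxcr4 and Ackr3, was 87.0, 336 and 286 CPM in castrated tumors. In intact tumors it was 13.1 and 15.9 CPM. Castrated replicate 1 was the lowest of its group yet well above both intact samples, and the log2 fold change was 4.03 (SE 0.68, unadjusted p = 0.00163, adjusted p = 0.289). Between 3.70 and 4.43 was the range of this value when each sample was left out in turn. Ccl21a, which draws Ccr7-bearing dendritic cells and T cells into lymphatic vessels and lymph nodes, was 58.7, 51.7 and 106 CPM in castrated tumors against 0.0895 and 7.14 CPM in intact tumors. Intact replicate 1 held only 2 counts, and the log2 fold change of 4.32 (SE 1.56, unadjusted p = 0.0372) became 3.36 without that sample and 9.53 without intact replicate 2, when those 2 counts were the whole of the intact group. Near-identical copies of Ccl21 and Ccl19 lie on chromosome 4, and their deposited spans covered more than 1 Mb or a scaffold, so the division of reads between copies is uncertain. Cxcl13, the B cell attractant, was 9.34, 52.8 and 58.7 CPM against 17.0 and 13.8 CPM. Castrated replicate 1 was below both intact samples, and the unadjusted p was 0.133. Ccl19 was not tested, at 0.0697, 0.268 and 0.770 CPM against 0 and 0.0927 CPM, and Ccl21b had no count.

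The upstream 100 bases of Cxcl12 and Ccl21a are shown as those of the 2 ligands with the largest log2 fold changes when all samples were fitted. They are from GRCm38.p6 at chr6:117168435-117168534, plus strand, and chr4:42773992-42774091, minus strand.
Cxcl12: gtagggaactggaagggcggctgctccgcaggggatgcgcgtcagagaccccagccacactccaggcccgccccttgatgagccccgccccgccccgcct
Ccl21a: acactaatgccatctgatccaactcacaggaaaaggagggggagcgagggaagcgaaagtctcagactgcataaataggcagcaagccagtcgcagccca
The Cxcl12 sequence was 73.0% G and C and the Ccl21a sequence 53.0%, and neither 250-base window held TATAAA or the NF-kappaB consensus described below.

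Several stromal and lymphoid markers stood beside Cxcl12, Ccl21a and Cxcl13. Lymphatic endothelial genes were higher in 5 of 6, with Mmrn1 at 38.3, 31.8 and 65.3 CPM against 1.30 and 3.75 CPM and Lyve1 at 25.6, 35.4 and 30.3 CPM against 12.2 and 3.66 CPM. That list summed to 628, 421 and 423 CPM against 521 and 123 CPM, because Prox1, which is not restricted to lymphatic vessels, was 450, 145 and 150 CPM against 458 and 62.0 CPM. By TPM the most abundant gene of the list was Pdpn, at 74.7, 174 and 106 CPM against 22.3 and 45.9 CPM. Fibroblast genes were higher in 7 of 8, with 4, namely Dcn, Lum, Dpt and Pdgfra, above both intact samples, and Dcn at 997, 2660 and 3780 CPM against 487 and 493 CPM. The collagen genes Col1a1, Col1a2 and Col3a1 had log2 fold changes of -0.36, 0.01 and 0.09 and Pdgfrb one of 0.41, all with overlap. The fibroblast list summed to 4459, 5597 and 7444 CPM against 4232 and 2530 CPM. Adipocyte genes were higher in all 10 and summed to 54.2, 715 and 665 CPM against 36.1 and 90.8 CPM, thus high in castrated replicates 2 and 3 alone. Adipoq, a defining adipocyte gene, was 0.523, 68.7 and 67.5 CPM against 0 and 0.0927 CPM, and Fabp4 led the list at 37.0, 287 and 191 CPM against 26.0 and 51.8 CPM. B cell genes were higher in all 7, each above both intact samples, and summed to 329, 1588 and 1289 CPM against 57.5 and 22.2 CPM. The plasma cell gene Jchain accounted for most of that sum, at 318, 1516 and 1211 CPM against 56.1 and 18.7 CPM. Castrated replicate 1, the sample with the lowest Adipoq of its group, also had the lowest Cxcl12 (87.0 CPM) and Cxcl13 (9.34 CPM) of that group. Ccl21a was 58.7 CPM there, between the 51.7 and 106 CPM of castrated replicates 2 and 3. The part of these cells in the ligand values was not tested.

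**Figure D2:**
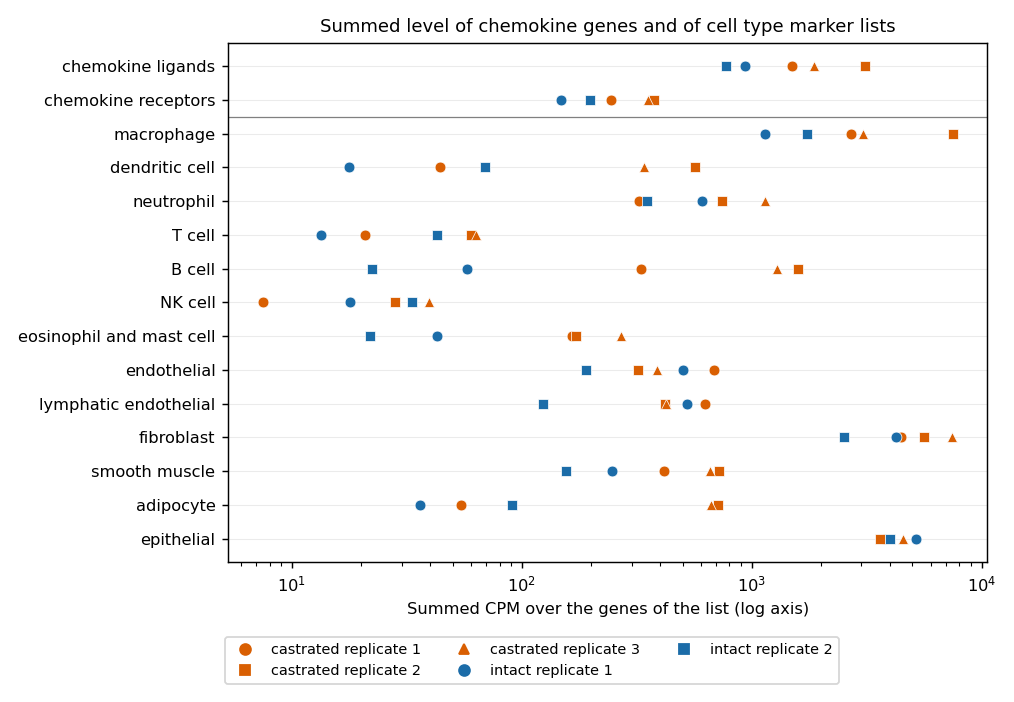
Summed CPM of the chemokine ligands and receptors and of 13 cell type marker lists in each sample, on a log axis; orange marks are castrated and blue marks intact samples, with the shape giving the replicate. B cell, eosinophil and mast cell, macrophage and smooth muscle lists show all castrated samples to the right of both intact samples, whereas the adipocyte list is high in castrated replicates 2 and 3 only and the epithelial list overlaps.

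The ligands made by epithelium differed in direction among themselves. Cxcl14, a constitutive ligand of many epithelia and the second most abundant ligand per length, was 324, 537 and 412 CPM in castrated tumors and 216 and 282 CPM in intact tumors. The groups were apart by a narrow margin, with a log2 fold change of 0.77 (SE 0.30, unadjusted p = 0.0490). Ccl25, the ligand of Ccr9 and best known from thymus and small intestine, was the single member below both intact samples in all castrated samples. It was 6.87, 4.77 and 3.37 CPM against 11.7 and 13.4 CPM, a log2 fold change of -1.32 (SE 0.40, unadjusted p = 0.0197). Ccl28, a mucosal ligand of Ccr3 and Ccr10, was 0.418, 1.29 and 1.11 CPM against 0.134 and 0.0927 CPM (log2 fold change 2.97, SE 0.90, unadjusted p = 0.0184), so it was near the lowest level that could be tested. Cxcl17 ranged widely, from 5.54 to 56.9 CPM in castrated tumors and from 0.371 to 10.6 CPM in intact tumors. Ccl20, the ligand of Ccr6, was 0.383, 5.30 and 19.6 CPM against 0.627 and 1.25 CPM, with castrated replicate 1 the lowest of all samples. Ccl27a was 2.06, 2.36 and 4.28 CPM against 0.985 and 3.89 CPM, and Ccl27b had no count. Epithelial genes summed to 3764, 3596 and 4557 CPM against 5170 and 4008 CPM and none of the 8 was apart between groups.

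Ccl25 and Ccl20 are shown as the epithelial ligands with the lowest and the highest log2 fold change, again as the 100 bases before the start in GRCm38.p6, at chr8:4325110-4325209, plus strand, and chr1:83116666-83116765, plus strand. Capitals mark the NF-kappaB consensus in its common degenerate form of 10 bases, searched on both strands.
Ccl25: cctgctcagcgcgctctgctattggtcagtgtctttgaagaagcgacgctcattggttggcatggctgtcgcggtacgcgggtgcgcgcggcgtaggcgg
Ccl20: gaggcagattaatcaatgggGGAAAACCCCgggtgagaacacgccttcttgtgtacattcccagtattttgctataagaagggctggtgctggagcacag
For Ccl25 the start nearest to the RefSeq gene start was used. The consensus began 80 bases before the Ccl20 start and was not in this Ccl25 window.

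The neutrophil-attracting CXC ligands, of which Cxcl1, Cxcl2, Cxcl3 and Cxcl5 act on Cxcr2, showed no separation between groups in any of the 5 genes tested. Cxcl5 was 20.7, 86.2 and 86.9 CPM in castrated tumors against 20.3 and 34.1 CPM in intact tumors, with castrated replicate 1 among the intact values. The log2 fold change was 1.25 (SE 0.68, unadjusted p = 0.121). Cxcl15, known chiefly from lung and other mucosal epithelium, was 101, 40.2 and 35.5 CPM against 44.5 and 5.28 CPM (unadjusted p = 0.250). Cxcl1 was 19.9, 10.6 and 15.1 CPM against 10.9 and 11.3 CPM, Cxcl2 was 19.2, 24.8 and 9.24 CPM against 38.5 and 6.02 CPM, and Cxcl3 was 10.8, 10.3 and 3.08 CPM against 6.40 and 1.39 CPM. Intact replicate 1 held more Cxcl2 than any castrated sample. Neutrophil markers also overlapped: 6 of 7 tested were higher, 1 of them above both intact samples, and the list of 10 summed to 323, 740 and 1142 CPM against 607 and 352 CPM. Its most abundant gene was Ltf, which glandular epithelium also makes, at 148, 601 and 1048 CPM against 527 and 234 CPM, and the neutrophil gene S100a9 was 71.2, 49.9 and 29.4 CPM against 23.3 and 52.9 CPM.

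Cxcl1 is shown as a textbook target of NF-kappaB in the group that did not separate, with the consensus in capitals, from GRCm38.p6 at chr5:90891145-90891244, plus strand.
Cxcl1: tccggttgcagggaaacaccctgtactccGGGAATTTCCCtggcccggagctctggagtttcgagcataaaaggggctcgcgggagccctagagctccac
The run in capitals began 71 bases before the start and holds a match on each strand. Within 250 bases of the start the consensus was found in 9 of the 53 member promoters, namely those of Cxcl1, Cxcl2, Cxcl3, Cxcl10, Ccl20, Ccl9, Ccr3, Ccr6 and Ackr2, and in 3.9% of all 32851 promoters. Among these 9 genes only Ccl9, Ccr3 and Ackr2 were above both intact samples in each castrated sample.

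Interferon-induced ligands of Cxcr3 were low and close between groups. Cxcl10 was 4.57, 3.70 and 2.89 CPM in castrated tumors against 5.69 and 3.48 CPM in intact tumors (log2 fold change -0.30, SE 0.44). Cxcl9 was 5.30, 0.911 and 8.57 CPM against 2.73 and 4.31 CPM, and Cxcl11 was not tested, with 0.523, 0.268 and 1.49 CPM against 0.761 and 0.880 CPM. The membrane-bound ligands overlapped as well. Cx3cl1, or fractalkine, was 147, 100 and 104 CPM against 226 and 48.7 CPM, so the intact samples enclosed all castrated ones, and Cxcl16 was 57.0, 107 and 86.3 CPM against 35.5 and 95.6 CPM. The lymphocyte product Xcl1 was not tested and reached 1.67 CPM in intact replicate 2.

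**Figure D3:**
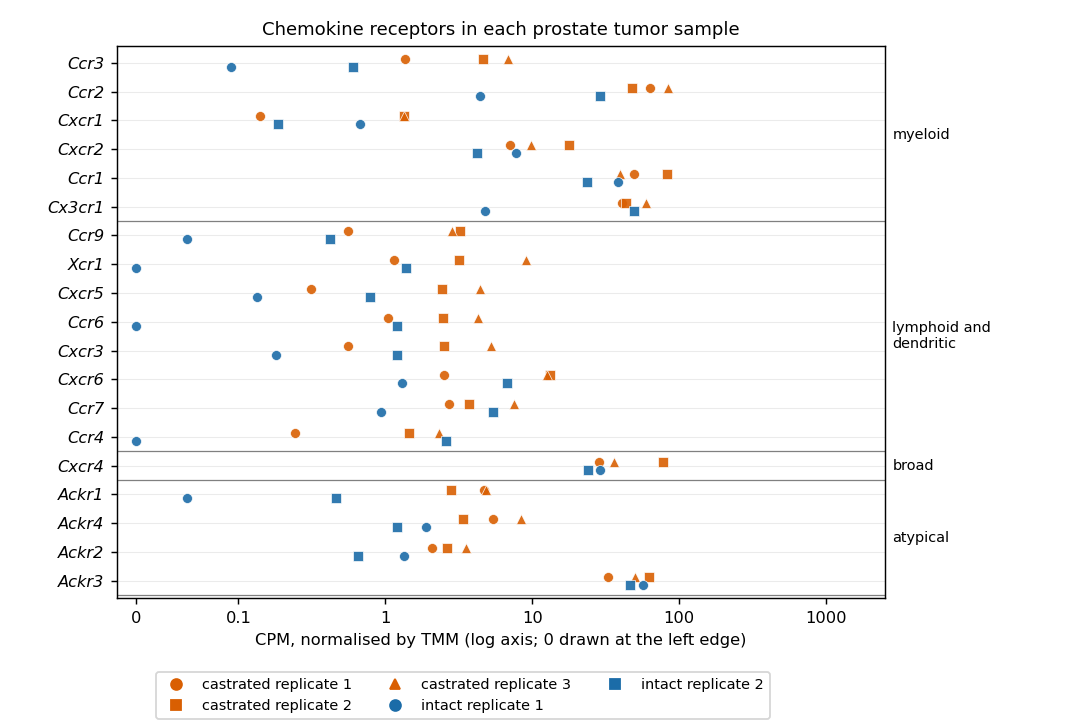
Level of each tested chemokine receptor in every sample, as CPM on a log axis with 0 drawn at the left edge, grouped by role; orange marks are castrated and blue marks intact samples, with the shape giving the replicate. Ccr1, Ccr2, Ccr3, Ccr9, Ackr1, Ackr2 and Ackr4 show all castrated samples to the right of both intact samples, and intact replicate 1 is the lowest sample for all 8 receptors of lymphoid and dendritic cells.

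All 15 signaling receptors tested had higher fitted values in castrated tumors, from 0.03 for Ccr4 to 3.61 for Ccr3 on the log2 scale. Without intact replicate 1, 3 of them turned negative, Ccr4 at -0.95, Ccr7 at -0.18 and Cx3cr1 at -0.020. Castrated values were all above the intact ones in 4 of the 15, beside 17.0% of all genes tested. The unadjusted p was under 0.05 in 2, Ccr3 and Ccr9, beside 15.0% of all genes. Both reached the level for testing through castrated samples only. Receptors of myeloid cells made up most of the summed TPM of signaling receptors in each sample. Ccr2, carried by inflammatory monocytes, was 62.8, 47.9 and 83.8 CPM in castrated tumors against 4.39 and 28.7 CPM in intact tumors. All castrated samples were higher, but the intact samples were far apart from each other, and the log2 fold change of 1.97 had an SE of 0.81 (unadjusted p = 0.0566). It was 1.20 without intact replicate 1 and 3.85 without intact replicate 2. Ccr1 was 48.9, 81.9 and 39.4 CPM against 38.2 and 23.7 CPM, its lowest castrated sample barely above intact replicate 1 (log2 fold change 0.88, SE 0.40, unadjusted p = 0.0798). Its log2 fold change was 0.52 without castrated replicate 2 and 1.28 without intact replicate 1. Ccr3, the eotaxin receptor of eosinophils and mast cells, was 1.36, 4.61 and 6.79 CPM against 0.0895 and 0.602 CPM. Its groups were apart at a low level (log2 fold change 3.61, SE 1.11, unadjusted p = 0.0208), and the log2 fold change was 2.83 without intact replicate 1 and 5.45 without intact replicate 2.

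Cx3cr1, the fractalkine receptor of resident macrophages and patrolling monocytes, did not separate the groups. It was 41.0, 43.4 and 59.6 CPM against 4.75 and 49.4 CPM, so that intact replicate 2 was within the castrated range and intact replicate 1 far below it. Cxcr2, the receptor of neutrophil ligands, was 7.08, 17.6 and 9.87 CPM against 7.79 and 4.22 CPM, and Cxcr1 lay between 0.139 and 1.35 CPM over all samples. Cxcr4, which many cell types carry, was 28.4, 77.2 and 36.0 CPM against 28.9 and 23.8 CPM. Castrated replicate 1 was within the intact range, and the unadjusted p was 0.135. Its mean over all samples, 49.6 TPM, was close to the 48.9 TPM of Ackr3, and the receptor with the highest TPM was Cxcr4 in castrated replicate 2, Ccr2 in castrated replicates 1 and 3, and Ackr3 in both intact samples. Ccr1l1, a close relative of Ccr1, was not tested, at 0, 0.0536 and 0.144 CPM in castrated samples and 0 in both intact samples.

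Receptors of lymphocytes and dendritic cells were low and varied with the replicate. Ccr9, the receptor of Ccl25, was the only one of the 8 tested whose groups did not overlap, at 0.558, 3.22 and 2.84 CPM against 0.0448 and 0.417 CPM (log2 fold change 3.23, SE 1.21, unadjusted p = 0.0419). It reached the level for testing through castrated samples only, and its log2 fold change was 2.40 without intact replicate 1 and 5.41 without intact replicate 2. Cxcr6, the highest by mean TPM, was at 2.51, 13.2 and 12.6 CPM against 1.30 and 6.72 CPM. Ccr7 was 2.72, 3.70 and 7.56 CPM against 0.940 and 5.38 CPM (log2 fold change 0.57, SE 0.86). Xcr1, which marks cross-presenting dendritic cells, was 1.15, 3.16 and 9.05 CPM against 0 and 1.39 CPM. Cxcr3 was 0.558, 2.52 and 5.20 CPM against 0.179 and 1.20 CPM, and the B cell receptor Cxcr5 was 0.314, 2.41 and 4.43 CPM against 0.134 and 0.788 CPM. Ccr6 was 1.05, 2.46 and 4.28 CPM against 0 and 1.20 CPM, and Ccr4 was 0.244, 1.45 and 2.31 CPM against 0 and 2.59 CPM. In all 8, castrated replicate 1 was the lowest castrated sample and intact replicate 1 the lower intact one. Ccr10 was not tested and did not exceed 0.433 CPM. Markers of T cells followed the same samples, with a summed level of 20.7, 60.2 and 63.2 CPM against 13.4 and 42.9 CPM. Of its 9 genes tested 7 were higher and 1, Cd4, was above both intact samples, and Cd3g, the highest by mean TPM, was 2.13, 11.7 and 9.44 CPM against 0.269 and 7.28 CPM. Dendritic cell genes were higher in all 7, with 2 above both intact samples, and summed to 43.9, 565 and 339 CPM against 17.7 and 69.0 CPM. Itgax was the largest term of that sum in every sample, at 20.6, 526 and 282 CPM against 9.22 and 54.3 CPM. NK cell genes summed to 7.46, 28.1 and 39.5 CPM against 17.8 and 33.2 CPM, with 2 of 5 tested higher and Gzma the highest by mean TPM at 4.50, 23.4 and 31.5 CPM against 15.9 and 7.60 CPM.

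Of the 4 atypical receptors, 3 were above both intact samples in every castrated sample, beside 17.0% of all genes tested. Ackr1, which presents chemokines on venular endothelium, was 4.67, 2.79 and 4.86 CPM in castrated tumors against 0.0448 and 0.463 CPM in intact tumors. It reached the level for testing through castrated samples only. Its log2 fold change was 4.0 (SE 0.92, unadjusted p = 0.00661, adjusted p = 0.289), the largest of any receptor with all samples fitted. It was 3.16 without intact replicate 1 and 6.32 without intact replicate 2, and in the latter fit Xcr1, Ccr6 and Ccr4, which had no count in intact replicate 1, had larger fitted values that depend on the prior count. Its annotated span overlaps Cadm3 on the same strand, so its counts are uncertain to that extent. Ackr4, a scavenger of Ccl19, Ccl21 and Ccl25, was 5.44, 3.38 and 8.33 CPM against 1.88 and 1.20 CPM (log2 fold change 1.89, SE 0.57, unadjusted p = 0.0199), and it overlaps Acad11 on the opposite strand. Ackr2, a scavenger of inflammatory CC ligands on lymphatic endothelium, was 2.09, 2.63 and 3.51 CPM against 1.34 and 0.649 CPM (log2 fold change 1.46, SE 0.57, unadjusted p = 0.0494). Ackr3, the scavenging receptor of Cxcl12, was the exception, with overlapping groups. It was 32.6, 61.8 and 50.1 CPM against 56.7 and 46.1 CPM, a log2 fold change of -0.09 (SE 0.32), and its share of the summed receptor TPM was 15.6%, 17.6% and 16.3% in castrated tumors against 39.2% and 26.6% in intact tumors. Endothelial genes, beside Ackr1, were higher in 7 of 8 with 3 above both intact samples, and summed to 682, 319 and 386 CPM against 500 and 191 CPM. Cldn5 had the highest mean TPM of them through castrated replicate 1 alone, at 255, 18.6 and 36.9 CPM against 44.6 and 4.26 CPM, and Pecam1 was 108, 67.8 and 98.5 CPM against 65.8 and 45.1 CPM.

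Ligands were then set beside their receptors, in 41 pairs listed from textbook knowledge, of which 32 had both genes tested. Pairs share genes with one another, so they are not independent. Both genes were higher in castrated tumors in 26 pairs, none had both lower, and in 6 the signs were opposite. In 10 pairs both genes were above both intact samples in every castrated sample, 4 of them with Ccr3, Ackr1 or Ccl28, which reached the level for testing through castrated samples only. Since 45 of the 50 members tested were higher and 40.0% were above both intact samples, beside 17.0% of all genes, neither these counts nor those of signs add anything about pairing. The 10 pairs were Ccl2 and Ccl12 with Ccr2, Ccl6 and Ccl9 with Ccr1, Ccl11, Ccl24 and Ccl28 with Ccr3, Ccl21a with Ackr4, and Ccl2 with Ackr1 and Ackr2. The pairs of opposite sign were Ccl25 with Ccr9 and with Ackr4, Cxcl2 with Cxcr2, Cxcl10 with Cxcr3, Cx3cl1 with Cx3cr1, and Cxcl12 with Ackr3. Among them only the pairs of Ccl25 had both genes apart between groups, the ligand lower and the receptors higher in castrated tumors. Without intact replicate 1 the log2 fold changes of Cxcl2, Cxcl10, Cx3cl1 and Ackr3 turned positive, at 1.58, 0.12, 1.29 and 0.087. In that fit Ccl5, Ccr4, Ccr7, Cx3cr1 and Cxcl16 turned negative, so the tally of signs depended on this sample. The 2 ligands with the largest log2 fold changes stood beside smaller ones in their main signaling receptors. These were 4.03 for Cxcl12 beside 0.84 for Cxcr4, and 4.32 for Ccl21a beside 0.57 for Ccr7. Both ligands were picked for their size, so a smaller receptor value was fixed by that choice and says nothing about pairing. In the pairs of Ccr3 the receptor had the larger value, 3.61 beside 3.06 for Ccl24, 2.97 for Ccl28 and 1.68 for Ccl11. Differences between the genes of a pair were not tested. With each sample left out in turn, Cxcr4 ran from 0.30 (without castrated replicate 2) to 1.11 and Ccr7 from -0.18 to 2.27, beside 3.70 to 4.43 for Cxcl12 and 3.36 to 9.53 for Ccl21a. Per length, Cxcl12 was 28.6, 111 and 93.6 TPM in castrated tumors against 4.53 and 4.13 TPM in intact tumors. Its receptor Cxcr4 was 36.9, 101 and 46.6 TPM against 39.4 and 24.4 TPM. The ligand was thus below the receptor in both intact samples and in castrated replicate 1, and above it in castrated replicates 2 and 3.

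**Figure D4:**
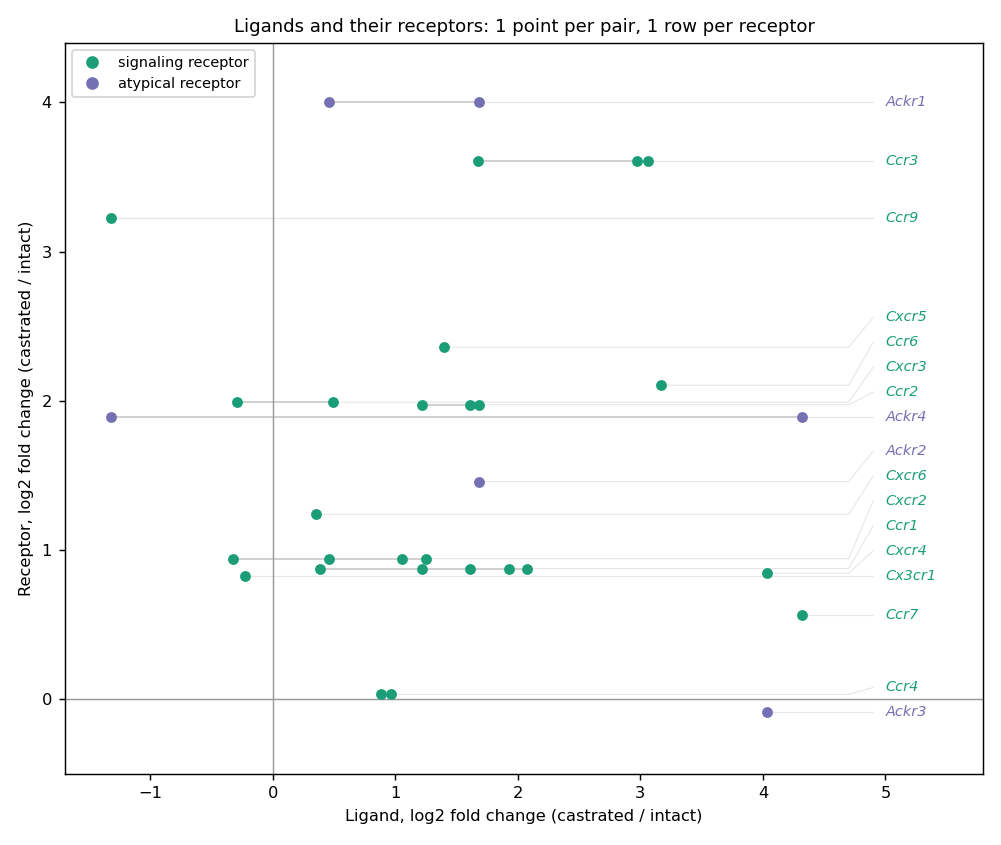
Log2 fold change (castrated over intact) of each ligand on the horizontal axis against that of its receptor on the vertical axis, with 1 point for each of the 32 pairs with both genes tested and a row for each receptor named at the right. Of the points, 26 lie in the upper right field and none in the lower left, and Ccl25 gives the points at the left of the Ccr9 and Ackr4 rows.

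Many chemokine genes lie in clusters, joined here where neighbors were at most 500000 bases apart in GRCm38.p6. On chromosome 11 a cluster of 6 CC ligands (chr11:82035577-82179812) held Ccl2, Ccl7, Ccl11, Ccl12, Ccl8 and Ccl1. All 5 genes tested were higher in castrated tumors. Above both intact samples were 4, and in the whole test 17.0% of all genes and 40.0% of members. The log2 fold changes ran from 1.21 for Ccl7 to 2.97 for Ccl8. Ccl7 was 0.53 without castrated replicate 1 and 1.63 without castrated replicate 3. A second cluster on the same chromosome (chr11:83525778-83664683) held Ccl5, Ccl9, Ccl6, Ccl3 and Ccl4. All 5 were higher and 3 were above both intact samples, from 0.38 for Ccl5 to 2.34 for Ccl4. Ccl5 turned negative without castrated replicate 3 (-0.075) and without intact replicate 1 (-0.031). Ccl4 reached the level for testing through castrated samples only. The receptor cluster on chromosome 9 (chr9:123767211-124109140) held Ccr9, Cxcr6, Xcr1, Ccr1, Ccr1l1, Ccr3 and Ccr2. All 6 genes tested were higher and 4 were above both intact samples, from 0.88 for Ccr1 to 3.61 for Ccr3. Ccr3 and Ccr9 reached the level for testing through castrated samples only. The CXC cluster on chromosome 5 (chr5:90759298-90905938) with Cxcl5, Cxcl3, Cxcl15, Cxcl1 and Cxcl2 had 4 of 5 genes higher and none above both intact samples, from -0.33 for Cxcl2 to 1.25 for Cxcl5. Cxcl9, Cxcl10 and Cxcl11, further along that chromosome (chr5:92321331-92363296), had 1 of 2 tested genes higher and none above both. Neighboring genes share sequence and sometimes reads, and the differences between clusters were not tested.

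**Figure D5:**
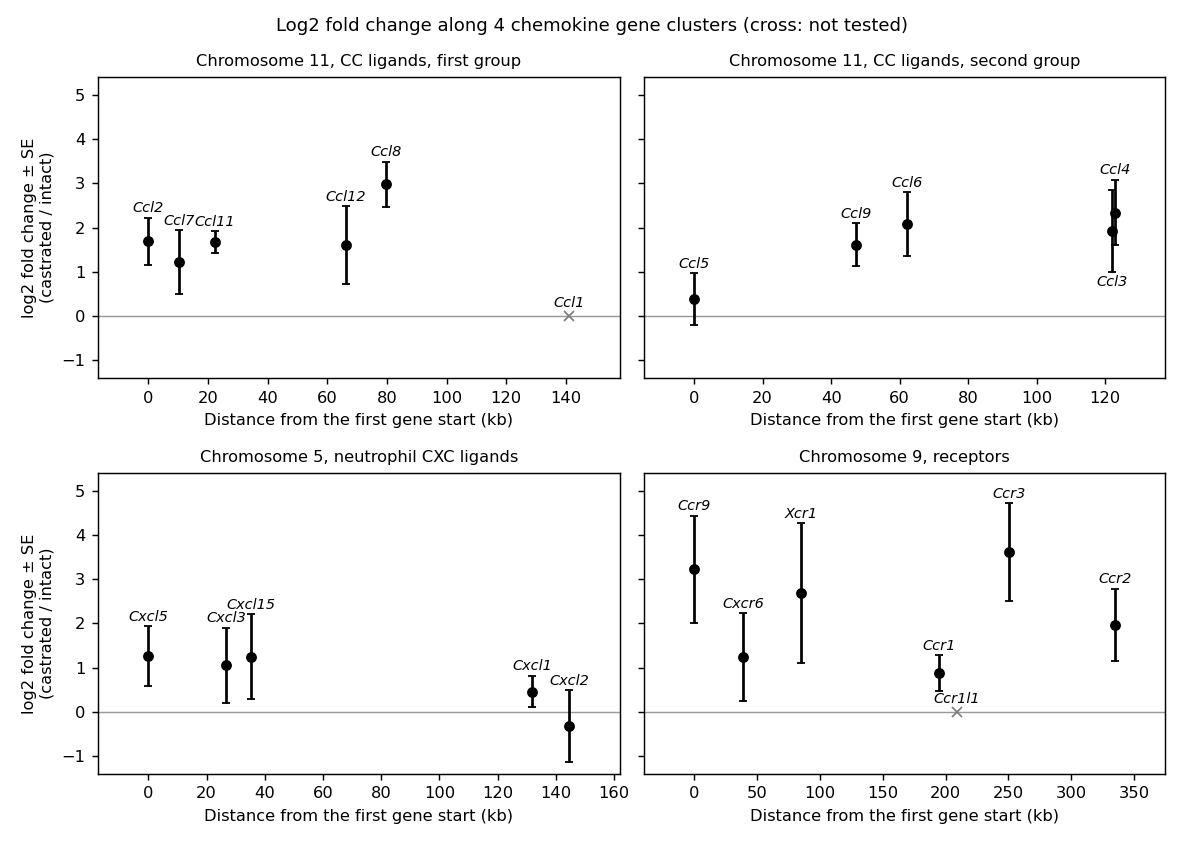
Log2 fold change (castrated over intact) with its SE as bars for the genes of 4 chemokine clusters, placed by the distance of each gene's start from the first gene start in kb; crosses mark genes that were not tested. Every tested gene of the chromosome 11 and chromosome 9 clusters lies above 0, and the chromosome 5 values run from -0.33 to 1.25.

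Genes acting around the chemokine system were summarized from 3 further lists. Among 8 related molecules, 6 were higher and 4 above both intact samples. Pf4, a platelet CXC chemokine that macrophages also make and that the naming rule did not take in, was 42.5, 86.0 and 18.8 CPM against 6.31 and 5.14 CPM (log2 fold change 3.10, SE 0.71, unadjusted p = 0.00627). Cd74, the invariant chain of MHC class II and receptor of Mif, was 694, 1002 and 1299 CPM against 112 and 325 CPM (unadjusted p = 0.0121). Cmklr1, the chemerin receptor, was 33.5, 54.3 and 44.7 CPM against 23.9 and 17.7 CPM (unadjusted p = 0.0140). Among 24 genes of receptor signaling, 22 were higher, 13 were above both intact samples, beside 17.0% of all genes, and 9 had an unadjusted p under 0.05 with a log2 fold change over 1, beside 7.66%. Those with the lowest p were Rac2, a GTPase of cell migration, at 36.1, 103 and 74.9 CPM against 11.7 and 17.6 CPM, Plcb2, a phospholipase C, at 22.4, 24.4 and 33.2 CPM against 3.49 and 8.85 CPM, and Elmo1, a Rac activator, at 32.6, 46.4 and 41.0 CPM against 15.6 and 23.9 CPM. The G protein gene Gnai2, the most abundant of the list, was 602, 609 and 506 CPM against 462 and 343 CPM. Among 16 inducers of chemokine genes, 12 were tested, 10 were higher and 2 were above both intact samples, namely Csf1 and Irf1. Csf1, the macrophage growth factor, was 62.9, 150 and 106 CPM against 44.1 and 48.7 CPM (log2 fold change 1.20, SE 0.39, unadjusted p = 0.0263). Irf1, a transcription factor of the interferon response, was 53.0, 87.0 and 76.9 CPM against 42.0 and 52.3 CPM, and Nfkb2, an NF-kappaB subunit, was 48.3, 63.8 and 65.8 CPM against 46.0 and 48.7 CPM, with overlap. Tnf, Il1b and Il6 overlapped, and Ifng did not exceed 0.0481 CPM in any sample.

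Members that did not reach the level for testing numbered 10. Ccl21b, Ccl26 and Ccl27b had no count in any library, which allows up to 3 counts, or 0.107 to 0.158 CPM before scaling, for counting error only. Ccl1, Ccl19, Cxcl11, Xcl1, Ccr8, Ccr10 and Ccr1l1 were counted at the levels given above.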

How the data were processed

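The data were 1 table of counts per gene from bulk RNA sequencing of prostate tumors, 3 from castrated and 2 from intact TripleTg mice. Per the labels and the study's methods, the authors made libraries after removal of ribosomal RNA, used Trimmomatic 0.39 for trimming and STAR 2.7.9 for alignment to mm10, and deposited raw HTSeq 2.0.2 counts; the strand setting is not given in the sources used here. Groups and replicate numbers came from the sample titles.

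Counts were fitted with edgeR 4.0.16 (R 4.3.3; glmQLFit and glmQLFTest, TMM scaling, group as the only term) over the 14612 genes with CPM over 1 in at least 2 samples, with Benjamini-Hochberg adjustment over all of them. The study's methods name TPM as input, but the test needs counts. A gene was called where its adjusted p was below 0.05 and its log2 fold change beyond 1 in either direction. CPM used the TMM-scaled library size, and TPM was computed from the deposited counts and gene lengths. The fit was tested on simulated data. Replicates differed in counts far beyond sampling noise (chi-square per gene 140.2 to 347.2), so none was a duplicate. Labels do not say that samples with the same number are related, and their deviations correlated at 0.173 and -0.03.

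Gene spans came from RefSeq (GRCm38.p6), in which all 60 members were found; 35 deposited spans were equal to it. Of the 61 genes that the naming rule takes in, 1 is not reported here, and neither are 3 genes of the marker and pathway lists; all counts, sums and medians were computed without them. The members and all lists and pairs were chosen with earlier results of these data known. Members were named with values where the unadjusted p was under 0.05, where they were among the 2 most abundant of a role list, where they were partners of such genes in the pair list, or where they were atypical receptors; other members were added for completeness. Of each pathway list the 3 genes with the lowest p, and of each marker list the most abundant by mean TPM, were named; further genes of these lists were chosen after their values were seen. DESeq2 1.42.0, limma 3.58.1, other scalings, filters, a replicate block and leaving out samples were tried as alternatives.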

Additional observations from a re-analysis of the deposited data

How the results depend on the processing

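Precision was limited by the 2 intact samples and, for genes with few counts there, by depth (Ccl21a had 2 counts in intact replicate 1). No member was called by the quasi-likelihood test, nor under other scalings, filters, limma-trend on log2(TPM + 1), the older quasi-likelihood fit, or with any sample left out (17 members had an unadjusted p under 0.05). DESeq2 called 11 members (Ackr1, Ackr4, Ccl11, Ccl21a, Ccl24, Ccl25, Ccl4, Ccl8, Ccl9, Ccr3 and Cxcl12; 989 genes in all) and edgeR's likelihood ratio test 4 (Ackr1, Ccl11, Ccl8 and Cxcl12; 369 in all). Ccl11 had an adjusted p of 6.33e-09 in DESeq2, 0.00681 in the likelihood ratio test and 0.289 in the quasi-likelihood test; the cause was not tested.

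With the replicate block, which rests on a shared number alone, no member was called, the number lower at the unadjusted p went from 1 to 0, and 3 log2 fold changes changed sign, Cx3cl1 to 0.21, Cxcl2 to 0.51 and Cxcl9 to -0.57. In limma-trend Ackr3 was 0.0028, Cx3cl1 0.26 and Cxcl2 0.21. Leaving out 1 castrated sample at a time gave 7 to 17 members higher at the unadjusted p, beside 4.09% to 9.77% of all genes, and 0 to 1 lower. Leaving out any 1 sample gave 20 to 33 members above all intact samples left, beside 19.3% to 36.2% of all genes. Below them were 1 to 4 members, beside 18.5% to 35.6% of all genes. The 4 came without intact replicate 2, beside 34.5%. The ligand median was 1.09 to 1.58 and the receptor median 1.11 to 3.30, the last without intact replicate 2. In these fits the sign changed for Ackr3 (-0.30 to 0.13), Ccl27a (-0.40 to 1.52), Ccl5 (-0.075 to 0.96), Ccr4 (-0.95 to 7.90), Ccr7 (-0.18 to 2.27), Cx3cl1 (-0.98 to 1.29), Cx3cr1 (-0.020 to 3.30), Cxcl10 (-0.65 to 0.12), Cxcl16 (-0.17 to 1.19), Cxcl2 (-1.16 to 1.58) and Cxcl9 (-0.17 to 0.997). A lone sample in a group was assumed to vary like the others.

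Chosen after seeing the data, leaving out castrated replicates 2 and 3, which carried the adipocyte counts, gave 40 members tested, 6 higher (beside 1.3% of all genes) and 0 lower at the unadjusted p, 20 above and 3 below both intact samples (beside 29.6% and 29.4% of all genes), a ligand median of 0.62 and a receptor median of 0.63. Signs then changed for Ccl22 (-0.85), Ccl27a (-0.24), Ccl3 (-0.10), Ccl5 (-0.10), Ccr7 (-0.21), Cx3cl1 (0.081), Cxcl13 (-0.73), Cxcl16 (-0.20), Cxcl17 (-0.010), Cxcl5 (-0.39) and Cxcr6 (-0.67).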
